A study of Arabidopsis thaliana with 12 samples.

Results

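Of 14620 nuclear Arabidopsis genes with a translated coding open reading frame (ORF) listed in both the shoot and the root, 333 (2.28%) had no coding ORF of 100 codons or more in either tissue. These 333 small-ORF genes are described here beside the remaining 14287. Members were chosen by position and length alone: chromosomes 1 to 5, the annotated-coding category, and the number of codons given by the transcript positions in the name of each ORF. The counts took no part in that rule beyond an ORF being listed at all. Of the 333, 331 were found in the RefSeq gene table of assembly TAIR10.1, and 83 carry a symbol or another name there. The rest are given by locus identifier only.

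The study applied ribosome profiling, in which the short stretches of RNA protected by ribosomes are sequenced, to shoots and roots of wild-type Arabidopsis thaliana of the Col ecotype. All plants were seedlings 4 days old, raised hydroponically in liquid medium with sucrose and harvested 3 hours after lights on, and no genotype or treatment separated the groups. The series holds 3 ribosome profiling libraries of shoot and 3 of root, and as many total RNA libraries, but the values used here are 1 set of ORFs with 1 count each per tissue. There is therefore no replicate error on any value below, no test between tissues was possible, and the intervals given cover counting error only.

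Plant genomes encode many proteins of under 100 residues. Some are fixed parts of large machines such as ribosomes, spliceosomes, RNA polymerases and mitochondrial import complexes. Others act alone: cysteine-rich metallothioneins bind metal ions, secreted peptide precursors are cut into hormones, arabinogalactan peptides are glycosylated and anchored at the cell surface, and microproteins that lack a DNA-binding domain sequester larger transcription factors.

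The shoot set held 95481490 counts over 16191 genes of all kinds and the root set held 113381941 counts over 16757, where each gene enters the sum with its largest ORF count. Genes that mark the organs fell on the labelled side: the Rubisco small subunit gene RBCS1A had 1065418 counts in shoot and 29379 in root, and the root-hair expansin EXPA7 had 304 in shoot and 17572 in root. These are whole organs with many cell types, so fewer cells of a type and less RNA per cell cannot be told apart.

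The ORFs of the small-ORF genes were made of few blocks and began near the start of the transcript. Their median length was 78 codons in each tissue, with a range of 15 to 99, against a median of 406 codons for the other genes. In shoot 111 of them (33.3%) and in root 112 (33.6%) lay in 1 exon block, against 14.8% of the other genes in each tissue. The median number of blocks was 2, against 5. The ORF began at a median transcript position of 94 in shoot and 92 in root, against 123 and 122 for the other genes. More than 1 coding ORF was listed for 31 members (9.31%) in shoot and 35 (10.5%) in root, against 22.5% of the other genes in each tissue. Of the members, 81 lay on chromosome 1, 55 on chromosome 2, 71 on chromosome 3, 50 on chromosome 4 and 76 on chromosome 5.

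**Figure D1:**
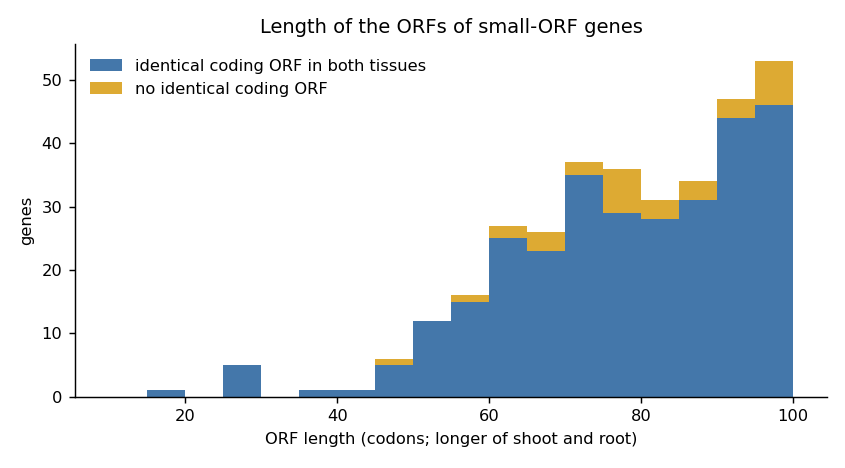
Number of small-ORF genes (vertical axis) by the length in codons of the ORF with the largest count, the longer of shoot and root, with genes that have an identical ORF in both tissues in blue and the others in yellow. Most of the 333 genes lie above 50 codons, and the small bar starting at 25 codons holds the 4 loci of that length and AT2G28105, with 29.

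The shortest member was AT1G17090, with an ORF of 15 codons and 94 counts in shoot against 485 in root. It was followed by 4 loci of 25 codons each, which were among the most heavily covered ORFs. AT1G56045 had 10146 counts in shoot and 12957 in root. AT3G11120 had 8231 in shoot and 12259 in root, and AT3G56020 had 6858 in shoot and 10190 in root. AT2G40205 had 6222 in shoot and 9063 in root. Their counts stayed within 2-fold of one another in each tissue. Likeness of their sequences was not checked, and how reads that match several loci were assigned is not given. Their separate counts may therefore be uncertain. At the other end, 8 members reached 99 codons. The largest counts among those belonged to TOM22-V, a receptor subunit of the mitochondrial outer membrane translocase, with 7461 counts in shoot and 8110 in root. LSM7 (EMB2816 in the table), part of a ring that binds RNA in mRNA decay and splicing, had 2866 in shoot and 5748 in root. UPI had 1784 in shoot and 6508 in root. Just outside the rule, at 100 codons, stood MAPR2 and AT2G24945, which are listed with the same 6431 counts in shoot and 15724 in root, and AT3G47070 with 17385 in shoot and 345 in root.

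Small-ORF genes had counts of the same order as the other genes on far fewer codons. The median count was 1431 in shoot for members and 1630 for the other genes, and in root 2463 for members and 2244 for the others. As a level per length, the members' median was 18.0 counts per codon in shoot (quartiles 6.62 and 55.2), against 3.86 for the other genes (1.55 and 10.7). In root it was 31.0 (11.2 and 101) for members, against 5.30 (2.23 and 14.5) for the others. Of the members, 117 (35.1%) in shoot and 141 (42.3%) in root were in the top 10% of all genes by counts per codon, against 9.41% and 9.25% of the other genes. Together the 333 genes held 1.39% of the shoot sum and 2.02% of the root sum (95% intervals 1.388 to 1.393 and 2.017 to 2.022), where a sum takes in all genes of its set. Over the 14620 genes listed in both tissues alone, they held 1.46% of the counts in shoot and 2.07% in root, on 0.372% of those genes' codons in shoot and 0.373% in root. The members differed widely among themselves: counts ran from 24 to 63475 in shoot and from 21 to 166250 in root, and 14 members in shoot and 8 in root had under 100. A short ORF reaches a higher count per codon at any given count, and an ORF has to be detected to be listed. The part of that detection in the higher levels was not tested.

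**Figure D2:**
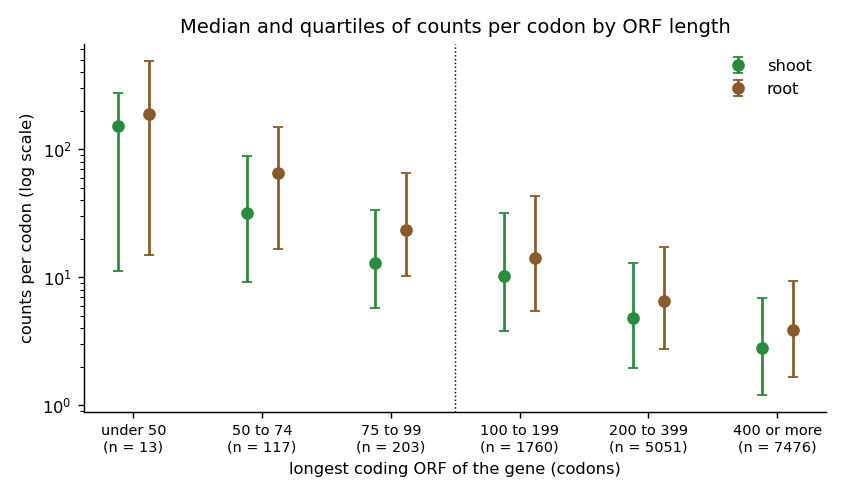
Counts per codon on a log axis against the length of the longest coding ORF, in bins, with points for medians and bars for quartiles over the genes of each bin in shoot and root and a dotted line at 100 codons. The median is highest under 50 codons, a bin of 13 genes, and lowest at 400 codons or more in both tissues.

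The median level was lower in each longer bin, on both sides of the 100-codon limit. The 117 genes of 50 to 74 codons had a median of 32.0 counts per codon in shoot and 65.1 in root, and the 203 genes of 75 to 99 codons had 13.0 in shoot and 23.3 in root. The 1760 genes of 100 to 199 codons, all outside the small-ORF genes, had 10.1 in shoot and 14.2 in root. The 7476 genes of 400 codons or more had 2.78 in shoot and 3.90 in root.

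The highest levels belonged to metallothioneins, cell-surface peptides and several loci with no name in the gene table. Loci with no name were also left out of the functional lists below, so these may belong to one of those groups. In shoot the first place was taken by MT2B, at 824 counts per codon against 465 in root. MT1A followed with 795 in shoot and was first in root with 3694. After these came AT3G59540 with 505 counts per codon in shoot and 676 in root, AT1G52300 with 411 in shoot and 553 in root, AT1G56045 with 406 in shoot and 518 in root, and AT5G47930 with 398 in shoot and 541 in root. The arabinogalactan peptide AGP15 had 396 in shoot and 369 in root. MT2A had 389 in shoot and 29.7 in root, so it stood among the highest 10 in shoot alone. AT3G48140, with 356 in shoot and 390 in root, and AT3G53890, with 354 in shoot and 336 in root, completed the shoot's highest 10. In root the list also held the dehydrin AtHIRD11 (AT1G54410), a hydrophilic protein of the type that accumulates under drought and cold, with 246 counts per codon in shoot and 811 in root. It further held AGP24 with 35.4 in shoot and 721 in root, MT1C with 151 in shoot and 720 in root, and AT3G11120 with 329 in shoot and 490 in root.

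**Figure D3:**
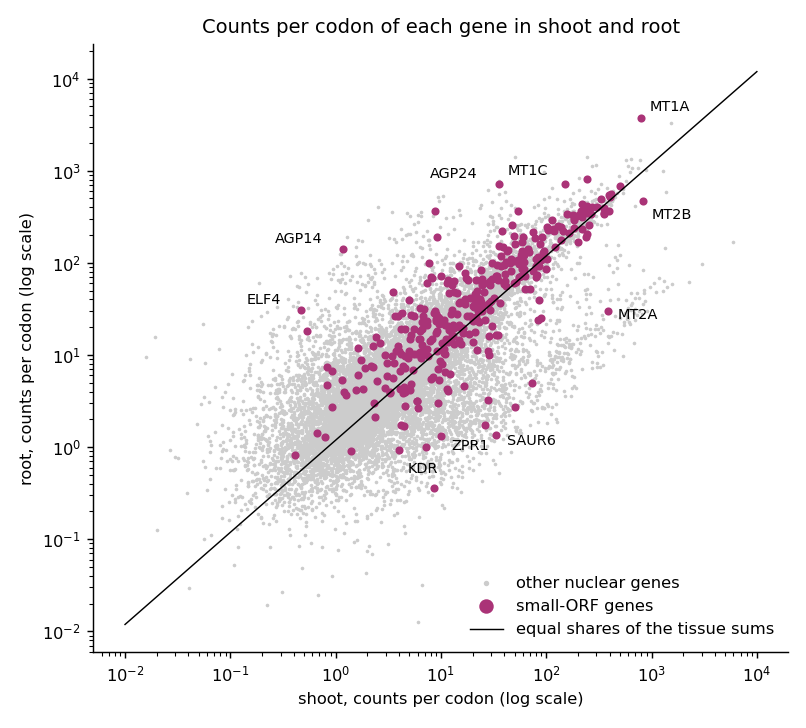
Counts per codon in shoot against counts per codon in root, both on log axes, with small-ORF genes marked over the other genes and a line at equal shares of the tissue sums. Small-ORF genes spread over several orders of magnitude and lie mostly in the upper part of the cloud, with MT1A highest in root.

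In most small-ORF genes the identical ORF was listed in both tissues. This held for 301 of 333 members (90.4%, exact binomial interval 86.7 to 93.3), against 79.1% (78.4 to 79.8) of the other genes. The other genes have more codons, and several coding ORFs were listed for a larger share of them. The part of either in this difference was not tested. The same stop codon was shared by 330 members (99.1%) and 99.9% of the others. Of the 32 members with no identical ORF, 29 kept the stop and differed in the start or in splicing, and 3 ended elsewhere. Those 3 are AT1G29950, AT1G29951 and AT1G29952, which overlap and share the same ORF in shoot. The lower stop agreement of the members thus rests on these overlapping loci alone. The ORF was longer in shoot in 12 of them and longer in root in 20. Their counts were low, with medians of 335.5 in shoot and 677 in root, against 1694 in shoot and 2642 in root for the other members.

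The largest differences in length were those of AT5G03440, with 98 codons in shoot and 47 in root, CLE41, with 99 in shoot and 55 in root, and AT3G05550, with 54 in shoot and 97 in root. CLE41 encodes the precursor of a peptide that keeps vascular stem cells from differentiating, and had 449 counts in shoot and 152 in root. Several differences outside that rule were picked after their values were seen. AT3G60245 was well covered in both tissues, with 64 codons and 15473 counts in shoot and 92 codons and 38362 counts in root. SMR4, a member of the SIAMESE-related family of cyclin-dependent kinase inhibitors, had 63 codons and 264 counts in shoot, against 51 codons and 88 counts in root. NIMIN-3, whose family binds the immune regulator NPR1, had 45 codons and 36 counts in shoot, against 72 codons and 93 counts in root. No ratio is given for these genes below, since their counts refer to different ORFs.

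A few members share bases with another gene, and their counts cannot be assigned to 1 locus. The ORF of MT1A is also listed under AT1G07590, with the same counts in each tissue. AT1G29950, AT1G29951 and AT1G29952 share an ORF of 48 codons with 282 counts in shoot, and overlap in root, where they are listed with 82, 25 and 82 codons and 258 or 259 counts. They count as 3 members. TBL42 overlaps an ORF of AT1G78700, AT2G28105 one of AT2G28100 and AT2G43745 one of AT2G43750. ORFs of other categories were listed for 2 members, in root only: AT1G52300 had an ORF of 70 codons downstream of its coding sequence with 116 counts, and AT4G32240 had an upstream ORF of 6 codons with 367 counts.

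To compare the tissues, the count of the identical ORF was divided by the sum of its set, and the ratio of the shoot share to the root share was taken on the log2 scale, so that a positive value is higher in shoot. The 301 measured members had a median log2 ratio of -0.54 (quartiles -1.20 and -0.00445), against -0.33 (-0.97 and 0.36) for 11309 other genes. The other genes here, and so all 11610 genes together, include coding genes outside chromosomes 1 to 5. The ratio was below 0 in 226 members (75.1%), against 63.4% of the other genes. Within 2-fold of equal shares lay 179 members (59.5%), against 61.2% of the others. At least 4-fold higher in shoot were 12 members (3.99%), where 8.76% of all 11610 genes were past that fold. At least 4-fold higher in root were 28 members (9.30%), where 8.28% of all genes were, a share near the background. The median of all genes was -0.33, and with that median set to 0 every ratio moves up by 0.33. The members' median is then -0.20. At least 4-fold higher in shoot are then 16 members (5.32%), against 10.3% of all genes, and in root 17 (5.65%), against 6.29%. Of the members past 4-fold, 48.5% are then on the shoot side, against 30% before. The count on the root side thus rests on the scaling, and the low share on the shoot side, 12 or 16 members, less so.

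**Figure D4:**
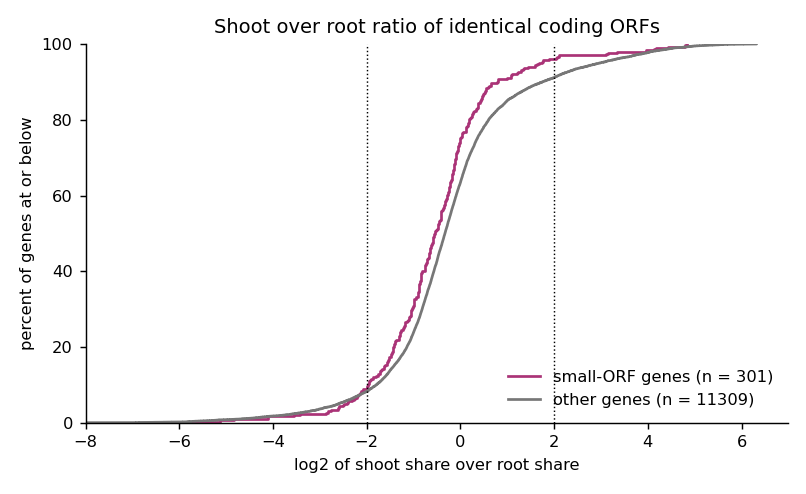
Cumulative share of genes, in percent, by log2 ratio of shoot share to root share, for 301 small-ORF genes and 11309 other genes. All have an identical ORF in both tissues, and the other genes include those outside chromosomes 1 to 5. Dotted lines mark 4-fold; between them the curve of the small-ORF genes lies to the left of the other, with medians of -0.54 and -0.33, and it reaches from -5.78 to 4.84.

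The members highest in shoot relative to root held regulators of growth and a metallothionein. SAUR6 (chromosome 2, 9085516 to 9085808, minus strand, 98 codons in 1 block), of a family of small auxin-induced proteins, had 3244 counts in shoot and 134 in root. Its share was 28.6-fold higher in shoot, a log2 ratio of 4.84 (interval 4.60 to 5.11). ZPR1 (chromosome 2, 18733551 to 18733928, minus strand, 93 codons in 2 blocks), a little zipper protein that binds and inactivates the leaf-patterning HD-ZIP III factors, had 928 counts in shoot and 124 in root (3.15). KDR (chromosome 1, 9351572 to 9352473, plus strand, 94 codons in 2 blocks), a helix-loop-helix protein that cannot bind DNA and promotes elongation, had 678 counts in shoot and 93 in root (3.11). All 3 had at least 678 counts in shoot and between 93 and 134 in root. The other members among the 10 highest were MT2A and 6 loci with no name in the table. AT5G15802 had 503 counts in shoot and 21 in root, AT5G44580 had 4903 in shoot and 268 in root, and AT1G67910 had 2383 in shoot and 156 in root. AT5G38980 had 6693 in shoot and 453 in root, AT2G30766 had 1318 in shoot and 154 in root, and AT5G24570 had 1159 in shoot and 318 in root. Their log2 ratios ran from 2.11 to 4.80.

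The member highest in root relative to shoot was ELF4 (chromosome 2, 16734548 to 16734807, minus strand, 87 codons in 1 block), a subunit of the evening complex of the circadian clock. It had 41 counts in shoot (exact Poisson interval 29.4 to 55.6) and 2702 in root (2601 to 2806), and its share was 54.8-fold higher in root, a log2 ratio of -5.78 (-6.28 to -5.35). The labels give the same harvest hour for both organs. AT4G22212 had 776 counts in shoot and 32360 in root (-5.13), and AT4G22230, a locus of nearby number, had 49 in shoot and 1665 in root (-4.82). AGP24 (chromosome 5, 16301154 to 16301361, plus strand, 69 codons in 1 block) had 2443 in shoot and 49778 in root, 17.2-fold higher in root. The remaining 6 of the lowest 10 have no name in the table. AT3G22240 had 662 counts in shoot and 13574 in root, and AT3G29034 had 302 in shoot and 4190 in root. AT2G37750 had 635 in shoot and 8061 in root, and AT2G22122 had 486 in shoot and 4236 in root. AT1G48750 had 771 in shoot and 6486 in root, and AT4G23885 had 571 in shoot and 4591 in root. All of the lowest 10 had at least 1665 counts in root.

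The groups below are gene lists drawn up by function, restricted to the entries that the RefSeq table names. Of 203 entries 117 were named, and 86 were left out. Named were 2 of 31 cytosolic ribosomal, 7 of 32 mitochondrial and 3 of 22 secretory and membrane entries. The values of these lists thus do not describe the whole groups. Metallothioneins went in opposite directions by type. Of 8 entries 5 were members and 3 were listed in neither tissue. The type 1 genes were higher in root: MT1A (chromosome 1, 2338907 to 2339320, minus strand) had 35766 counts in shoot and 166250 in root (-1.97), and MT1C had 6804 in shoot and 32398 in root (-2.003). The other genes were higher in shoot. MT2A (chromosome 3, 2889740 to 2890187, minus strand) had 31492 counts in shoot and 2405 in root (3.96, 15.5-fold), MT2B (chromosome 5, 506758 to 507163, minus strand) had 63475 in shoot and 35777 in root (1.08), and MT3 had 6108 in shoot and 1757 in root (2.05). The directions held when the median of all genes was set to 0, where MT1C no longer reached 4-fold. MT1A and MT1C are alike in sequence and lie 2284 bases apart, and how reads that match both were assigned is not given in the sources used here, so their separate counts are uncertain.

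**Figure D5:**
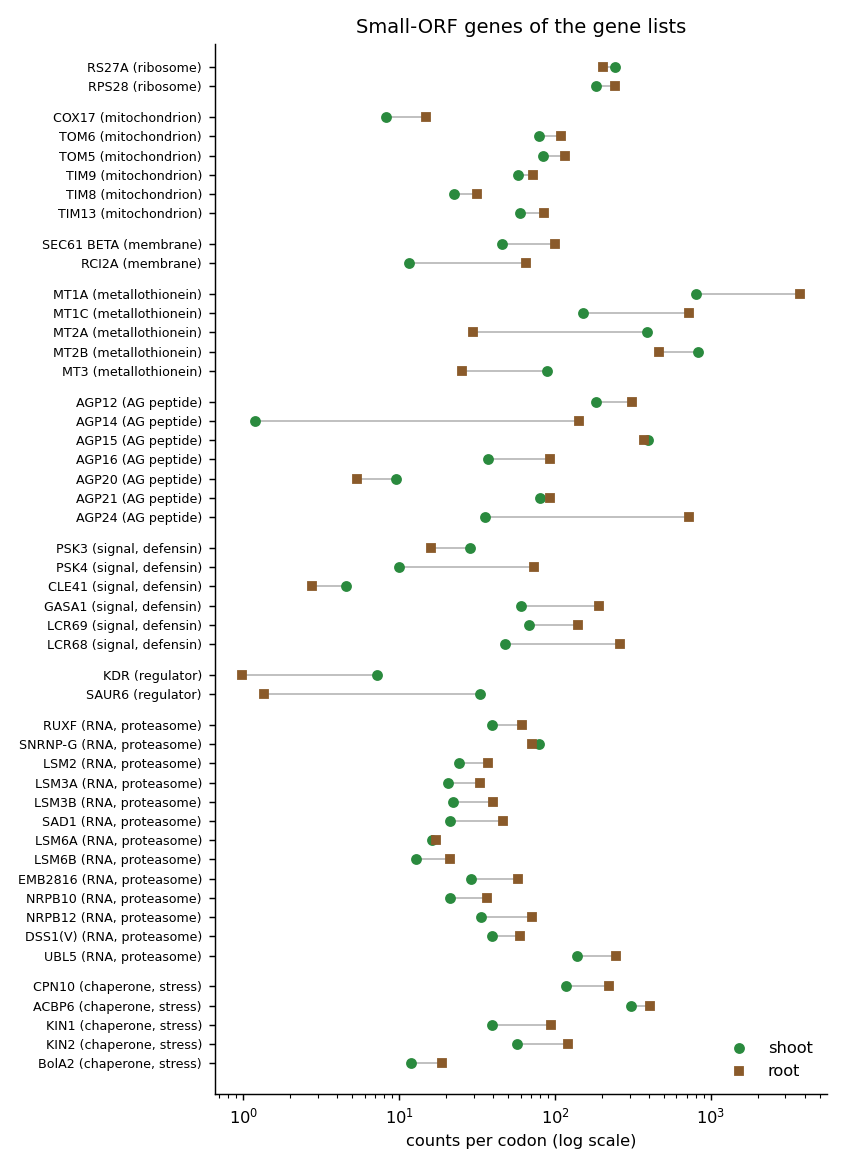
Counts per codon on a log axis for each small-ORF gene of the gene lists, 1 row per gene, with the shoot as circles and the root as squares joined by a line. Long lines of both directions stand among the metallothioneins, such as MT2A with 389 in shoot and 29.7 in root. Among the arabinogalactan peptides the long lines run toward root, such as AGP24 with 35.4 in shoot and 721 in root. Lines in the mitochondrial and RNA-processing lists are short.

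Arabinogalactan peptides, short cores that are heavily glycosylated and held at the plasma membrane by a lipid anchor, also spread widely. Of 11 entries 7 were members, 2 were listed in root only and 2 in neither tissue. Of 6 measured members 3 were above 0 and 3 below, with a median of -0.24, which turns positive with the median of all genes set to 0. AGP20 had 709 counts in shoot and 395 in root (1.09), and AGP15 had 24157 in shoot and 22514 in root (0.35). AGP21 had 4635 in shoot and 5404 in root (0.03). AGP12 had 10945 in shoot and 18536 in root (-0.51), and AGP16 had 2729 in shoot and 6783 in root (-1.07). AGP24, at the far root side, alone passed 4-fold. AGP14 had no identical ORF: it was listed with 55 codons and 65 counts in shoot and with 60 codons and 8547 counts in root, or 1.18 counts per codon in shoot and 142 in root.

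Of 39 named entries for secreted signals and defensins, 24 were listed in neither tissue, 6 in root only and 2 in shoot only, and 1 had a longer ORF. The other 6 were members, and 4 of those were measured. The phytosulfokine precursors among the members, which release a sulfated peptide that promotes growth, went both ways. PSK1 and PSK2 were listed in root only, and PSK5 in neither tissue. PSK3 had 2308 counts in shoot and 1301 in root (1.07), and PSK4 had 786 in shoot and 5741 in root (-2.62, 6.15-fold higher in root). The plant defensin LCR68 had 3669 in shoot and 20031 in root (-2.20), and lost the 4-fold call with the median of all genes set to 0. LCR69, with ORFs of 73 codons in shoot and 77 in root, had 67.6 counts per codon in shoot and 140 in root. GASA1, a cysteine-rich protein of the gibberellin-regulated family, had 5916 counts in shoot and 18837 in root (-1.42). Of the small regulators of growth and patterning, 24 in the list, KDR and SAUR6 were the members, while 4 entries were listed in shoot only, 3 in root only and 14 in neither tissue, and 1 had a longer ORF.

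Of 16 named entries for RNA processing, transcription and the proteasome, 13 were members, with log2 ratios between -0.89 and 0.41 and a median of -0.47. All 13 lay within 2-fold of equal shares, as 61.2% of all measured genes did, and none passed 4-fold, as 8.76% of all genes did toward shoot and 8.28% toward root. The Sm-type proteins SNRNP-G and RUXF, parts of the core ring of spliceosomal snRNPs, had ratios of 0.41 and -0.38. Among the LSM proteins, whose rings act in splicing and mRNA decay, LSM6A had 0.17, LSM2 -0.37, LSM3A -0.42, LSM6B -0.47, LSM3B -0.61, LSM7 -0.76 and SAD1 (LSM5) -0.89. The paralogs LSM3A and LSM3B differed little, and LSM6A and LSM6B stood on opposite sides of 0 before and after centring on all genes. NRPB10 and NRPB12, small subunits shared by nuclear RNA polymerases, had -0.54 and -0.85. The proteasome lid subunit DSS1(V) had -0.35 and the ubiquitin-like splicing factor UBL5 had -0.58. The last of these, like the list's median, lies slightly below the median of all genes.

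All 6 members among the 7 named mitochondrial entries had ratios between -0.58 and -0.08, with a median of -0.22. None passed 4-fold. Of all measured genes 63.7% were below 0, and 8.76% and 8.28% were past 4-fold toward shoot and toward root, so that 6 genes cannot be told from that background. TIM9, TIM8 and TIM13 are chaperones that carry hydrophobic precursors across the intermembrane space. TIM9 had 5349 counts in shoot and 6706 in root (-0.08), TIM8 had 1729 in shoot and 2418 in root (-0.24) and TIM13 had 5171 in shoot and 7374 in root (-0.26). TOM5 and TOM6, small subunits of the outer membrane pore, had 4522 and 4277 counts in shoot and 6216 and 5888 in root, both with a ratio of -0.21. These 5 were below 0 as shares and above 0 with the median of all genes set to 0. COX17, a copper chaperone for cytochrome c oxidase, had 613 in shoot and 1092 in root (-0.58). Of 31 ribosomal entries 2 were named, and both were members. RS27A had 20775 counts in shoot and 17540 in root (0.49). RPS28 had 11663 in shoot and 15423 in root (-0.16, positive with the median of all genes set to 0).

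In the secretory and membrane list 2 of 3 named entries were members. SEC61 BETA, a subunit of the channel that takes proteins into the endoplasmic reticulum, had 3726 counts in shoot and 8221 in root (-0.89). RCI2A, a small hydrophobic membrane protein induced by cold, had 624 in shoot and 3514 in root (-2.24), and fell short of 4-fold with the median of all genes set to 0. Of 7 entries for chaperones, lipid carriers and stress proteins 5 were members, all below 0, as 63.7% of all measured genes were, with a median of -0.65. None of the 5 passed 4-fold, against the 8.76% and 8.28% of all genes given above. The cochaperonin CPN10 had 11567 in shoot and 21591 in root (-0.65), and the cytosolic acyl-CoA carrier ACBP6 had 28111 in shoot and 37213 in root (-0.16, above 0 with the median of all genes set to 0). BolA2 had 1107 counts in shoot and 1740 in root (-0.40). The cold-induced pair KIN1 and KIN2, 1495 bases apart and alike in sequence, had 2598 and 3779 counts in shoot and 6172 and 8015 in root (-1.0003 and -0.84), so that their separate counts are uncertain in the way described for MT1A.

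Further named members, chosen after their values were seen, filled out these roles. Of the cell cycle, the kinase subunits CKS1 and CKS2, 921 bases apart, had 1936 and 1951 counts in shoot and 2027 and 2468 in root, with ratios of 0.18 and -0.09. APC11, the RING subunit of the anaphase-promoting complex, had 99 counts in shoot and 466 in root (-1.98), while BNS, another small subunit of the same complex, had 638 in shoot and 852 in root (-0.17). GIP1 and GIP2, partners of the gamma-tubulin complex, had 322 and 489 counts in shoot and 280 and 774 in root (0.45 and -0.41). BRK1, a subunit of the SCAR complex that activates actin nucleation, had 1714 in shoot and 1171 in root (0.80). Among genes of hormone and stress response, SAUR4, of the same family as SAUR6, had 229 counts in shoot and 1459 in root (-2.42), the other direction from SAUR6. AtHIRD11 had 24143 counts in shoot and 79508 in root (-1.47), and SAG21, a late-embryogenesis-abundant protein of senescence and stress, had 7205 in shoot and 21165 in root (-1.31). PROPEP4, the precursor of a danger peptide, had 316 in shoot and 1015 in root (-1.43), and LSU2, a protein induced by low sulfur, had 376 in shoot and 1029 in root (-1.20). The genes from SAUR4 to LSU2 were all below 0, as 75.1% of the measured members were. As examples they do not describe hormone and stress genes as a group. DPMS2 and DPMS3, subunits of the enzyme that makes dolichol phosphate mannose for glycosylation, had 529 and 493 counts in shoot and 1519 and 1715 in root (-1.27 and -1.55). Near equal shares stood SDH7, a plant subunit of succinate dehydrogenase, with 4776 in shoot and 5689 in root, NOP10, of the pseudouridylation snoRNPs, with 3141 in shoot and 3889 in root (-0.06), and the heat shock factor binding protein HSBP, with 5363 in shoot and 6166 in root (0.05).

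Members also lay beside each other without overlap, in 14 pairs within 5000 bases. That number was not set against pairs among the other genes, and the pairs given here are examples. APC11 and RCI2A lay 1397 bases apart with ratios of -1.98 and -2.24. COX17 and MT3, 339 bases apart, had -0.58 and 2.05. CKS1 and CKS2 both lay within 2-fold of equal shares.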

How the data were processed

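Translated ORFs from ribosome profiling of shoot and root were read from the lists deposited by the authors, 1 per tissue, in which each ORF has a whole-number count, a category and its block structure; the lists have no header, and the unit was read from the values. TAIR10, Bowtie2 and STAR 2.5.1b are named per the submitters' processing notes. How the 3 libraries per tissue were combined, which program called ORFs, and how reads matching several places were assigned is not given in the sources used here. Total RNA libraries and the lengths of annotated proteins were not analysed here. Coordinates are those of the deposited lists on TAIR10, 1-based, with the outer ends uncertain by 1 base; names come from RefSeq TAIR10.1.

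Per gene and tissue the coding ORF with the largest count was used for levels. Ratios use the longest coding ORF that is identical in shoot and root, which is not always the ORF used for levels. It was kept if the larger of its shoot and root counts was 100 or more. Ratios are the log2 of shares of the whole set with a pseudocount of 0.5. A call is a ratio of at least 4-fold. Intervals are exact Poisson or exact Clopper-Pearson binomial ones at 95%, and cover counting error only. Only the ratio and its interval were tried on simulated Poisson counts with known ratios. Those counts hold no variation between replicates and no reads that match several places, and the other steps were not simulated. Genes were named by a rule: list entries, the 10 highest and 10 lowest ratios, the 10 largest counts per codon in each tissue, the 5 shortest ORFs, the 3 largest length differences, and the 3 on each side of the 100-codon limit. The members and lists were chosen with earlier results of these data known. Tables were made in Python 3.11.15 with pandas 2.3.3 and numpy 2.4.6, intervals with scipy 1.17.1, and plots with matplotlib 3.10.9.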

Additional observations from a re-analysis of the deposited data

How the results depend on the processing

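No paired analysis was possible because each tissue has 1 count per ORF and no values per replicate. For the same reason no replicate could be left out in turn, and the alternatives built on annotated protein length were not run. The members' median log2 ratio of shoot to root, -0.54, was -0.57 with each tissue's largest ORF, -0.55 with counts of at least 627, -0.20 with the median of all genes set to 0 and, in settings chosen after seeing the data, -0.50 with shares of the nuclear coding sum and -0.56 without members that overlap another gene. The median over all genes, -0.33, was -0.34, -0.36 and, with the nuclear sum, -0.29. Members 4-fold higher in root, 28 of 301 (9.30%, against 8.28% of all genes), numbered 17 (5.65%, against 6.29%) with the median set to 0. With each tissue's largest ORF they numbered 35 of 331 (10.6%, against 9.88%). In the other settings they numbered between 25 and 28 (8.97% to 9.43%, against 8.04% to 8.62%). Those higher in shoot stayed between 11 and 16 in all settings (3.93% to 5.32%, against 8.72% to 10.3% of all genes). In shoot the members' median count per codon, 18.0, was 20.6 with at least 100 counts and 18.6 without overlapping members, and that of the other genes was 4.02 with at least 100 counts and 3.85 with the longest ORF. In root the members' 31.0 became 32.3, 31.2 and, with the longest ORF, 30.7, and the others' 5.30 became 5.38 and 5.26. The members number 166 at a limit of 80 codons, 588 at 120 codons and 570 with an ORF in either tissue. Agreement between tissues counted by the stop codon was 99.1% for members and 99.9% for the other genes. The only members that differed were the overlapping loci AT1G29950, AT1G29951 and AT1G29952. No ratio of a gene named by the rule changed sign except 14 of 74 with the median set to 0, all of them between 0 and -0.33 as shares. The causes were not tested.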

Other observations

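Genes with small ORFs only were a larger share of the genes listed in 1 tissue than of those listed in both. They made up 96 of 1437 genes listed in shoot only (6.68%, exact binomial interval 5.44 to 8.10) and 141 of 2047 listed in root only (6.89%, 5.83 to 8.07), against 2.28% (2.04 to 2.53) of the genes listed in both. Their median count was lower and their median level per codon higher than in the longer genes listed in 1 tissue. The median was 196.5 counts in the shoot-only small-ORF genes and 391 in the root-only ones, against 420 and 513 in the longer genes. Per codon it was 2.56 in the shoot-only small-ORF genes and 5.19 in the root-only ones, against 1.33 and 1.62 in the longer genes. The part of detection in these shares was not tested, and a gene missing from a list is not shown to be untranslated there.

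Among the listed functional groups, the root-only genes included RCI2B with 14058 counts, a close relative of RCI2A, the arabinogalactan peptides AGP13 with 4183 and AGP22 with 4704, the phytosulfokine precursors PSK1 with 761 and PSK2 with 1223, the peptide precursor CLE14 with 415 and the defensin PDF2.5 with 1616. Of the small growth regulators BS1 was listed in root only with 4459 counts, BNQ2 with 241 and BNQ3 with 236. The shoot-only genes included SAUR14 with 2824 counts, the single-repeat MYB proteins that repress trichomes, ETC1 with 375 and ETC3 (CPL3) with 450, the peptide precursor PSY1 with 298 and the defensin LCR67 with 286. A further 48 genes had only small ORFs in shoot and an ORF of 100 codons or more in root, and 34 had the opposite.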
